A study of Mus musculus with 8 samples.

Results

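The genes described here encode voltage-gated cation channels, potassium channels, CLC chloride channels and exchangers, and TRP channels, compared here between islets of the pancreas of wild type and of knockout mice. They were chosen by symbol alone, as every probe set annotated to a single gene whose symbol begins with Kcn, Scn, Cacna, Cacnb, Cacng, Hcn, Clcn, Trpc, Trpm or Trpv followed by its family number or letter, without Kcnj11, Cacna1d and Cacna2d1. The pattern took 147 of 24965 probe sets, of 102 of the 13674 genes with a single symbol: 95 of 12488 probe sets on the MG-U74A array (74 genes) and 52 of 12477 on MG-U74B (47 genes), with 19 genes on both. It also took Trpc4ap, whose product binds TRP channels and tumour necrosis factor receptors and is no channel. Counts over all channel probe sets or genes include it, and counts by channel class do not.

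The groups were wild type mice and mice with a knock-out of 1 gene. Islet total RNA was hybridised to Affymetrix MG-U74A and MG-U74B arrays, 2 types that carry different mouse probe sets. Each genotype was measured on 2 arrays of each type, called biological replicates by the submitters, 8 arrays in all. Strain, age and sex, and whether the arrays of a genotype held RNA of separate mice, are not given in the sources used here, so the p-values reflect array-to-array spread that may be technical. The values are linear intensities, and every probe set is compared only with itself.

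Beta cells turn glucose metabolism into insulin release through membrane voltage: closing of potassium channels depolarises the cell, voltage-gated calcium and sodium channels carry the action potential, and voltage-gated and calcium-activated potassium channels end it. Auxiliary subunits set how many pore subunits reach the membrane and how fast they open and close. CLC proteins either pass chloride at the plasma membrane or exchange chloride for protons in endosomes, lysosomes and secretory granules, and TRP channels let calcium and sodium in with little dependence on voltage.

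Of the 147 probe sets, 66 had a mean intensity over the 4 arrays of their type of at least 62.5, which is 25% of the common array mean, and were tested; they belong to 56 genes, and the other 46 genes had no probe set that passed the filter. On MG-U74A 61.1% of the channel probe sets lay below that filter, beside 39.5% of all probe sets without the control probe sets. On MG-U74B the shares were 44.2% and 36.7%. All 4 arrays were at or below 0 for 20 channel probe sets of MG-U74A and 8 of MG-U74B. The tested probe sets passed in part through the genotype in which they were higher. The wild type mean alone lay below the filter in 2 of 37 on MG-U74A (Kcne1 and Trpv2). On MG-U74B it did so in 5 of 29 (Cacna1b, Kcna1, Kcnf1, Kcnk5 and Trpm4). The knockout mean alone lay below it in 1 on MG-U74A (Kcnd3) and 0 on MG-U74B. These probe sets were tested only through the other genotype, so their direction is no support for a change. The filter also removed probe sets with a wild type mean above it, 2 on MG-U74A and 4 on MG-U74B. Among them, named after their values were seen, Kcnn1, a small-conductance calcium-activated potassium channel, read 136 and 101 in wild type and -2.20 and -86.4 in knockout arrays. Kcng2, a silent potassium channel subunit, read 100 and 86.9, then -288 and -64.3, and the sodium channel Scn3a read 144 and 96.3, then -42.7 and 42.7 on MG-U74B. In these 3 probe sets both knockout arrays were below both wild type arrays, and no test was made. The filter likewise removed probe sets with a knockout mean above it. They were those of Kcnab2 (22.7 and 27.0, then 105 and 85.4) and Kcnk2 on MG-U74A, and of Kcnn4 and Kcnj15 on MG-U74B. In each of them both knockout arrays were above both wild type arrays, again without a test.

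On MG-U74A 18 of the 37 tested channel probe sets changed at an adjusted p under 0.05 (48.6%), beside 52.9% of all 7516 tested. Of these, 6 rose (16.2%, beside 23.9% of all tested) and 12 fell (32.4%, beside 29.0%). The median log2 change, knockout minus wild type, was -0.43 for the tested channel probe sets and -0.09 for all tested. On MG-U74B 4 of 29 changed (13.8%, beside 17.5% of all 7861 tested). There, 2 rose (6.90%, beside 8.59%) and 2 fell (6.90%, beside 8.87%), and the median log2 change was 0.32 for the channels and 0.11 for all tested. Both knockout arrays lay on one side of both wild type arrays in 30 of 37 channel probe sets of MG-U74A (81.1%, beside 79.1% of all tested) and in 18 of 29 of MG-U74B (62.1%, beside 65.0%). The shares of channel probe sets that changed were thus near the background of each array type. Without Trpc4ap 17 of 36 changed on MG-U74A (47.2%), with 11 that fell (30.6%), and 4 of 28 changed on MG-U74B (14.3%). By gene, 20 of the 56 with a tested probe set changed, 7 upward and 13 downward, with Trpc4ap among the 13. The other 46 of the 102 genes could not be called. No gene had probe sets called in both directions. No matching share over all genes is given here, so these counts by gene cannot be set against a background. Of the 18 calls on MG-U74A, 9 ended without wild type replicate 1 and 10 without wild type replicate 2, and all 4 calls on MG-U74B ended without either wild type array.

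Marker genes of the cell types in such a preparation differed between genotypes too. On MG-U74A all 16 tested beta cell marker probe sets fell, with a summed intensity of 113881 to 114742 in wild type and 59446 to 66897 in knockout arrays, and all 10 tested acinar markers fell; duct markers rose in 4 and fell in 7 of 13, and endothelial markers rose in 7 and fell in 1 of 12. Of the lymphocyte markers 18 of 22 tested rose (7259 to 7286, then 38982 to 39354), of the macrophage and dendritic cell markers 16 of 18 (8541 to 8604, then 25722 to 26078), and of the fibroblast and stellate markers 15 of 21, with 3 that fell (9752 to 9755, then 27835 to 28919). Among these immune markers Cd2, Cd3e, Cd79a, Aif1, Fcer1g and Itgam were at or below 0 in both wild type arrays, and in the knockout only Cd3e was. Any tested probe set of these genes passed the filter only through its knockout values, so its direction is no support for a rise. Nerve and Schwann cell markers rose in 2 and fell in 5 of 16, with Nefm at or below 0 in every array. The 3′/5′ ratio of the Gapdh control probe sets, a measure of RNA integrity or of its labelling, was 3.07 to 3.22 in the wild type and 0.900 to 0.949 in the knockout arrays of both types. The part of cell makeup or RNA quality in the changes below was not tested, and in bulk RNA fewer cells of a type and less RNA per cell cannot be told apart.

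**Figure D1:**
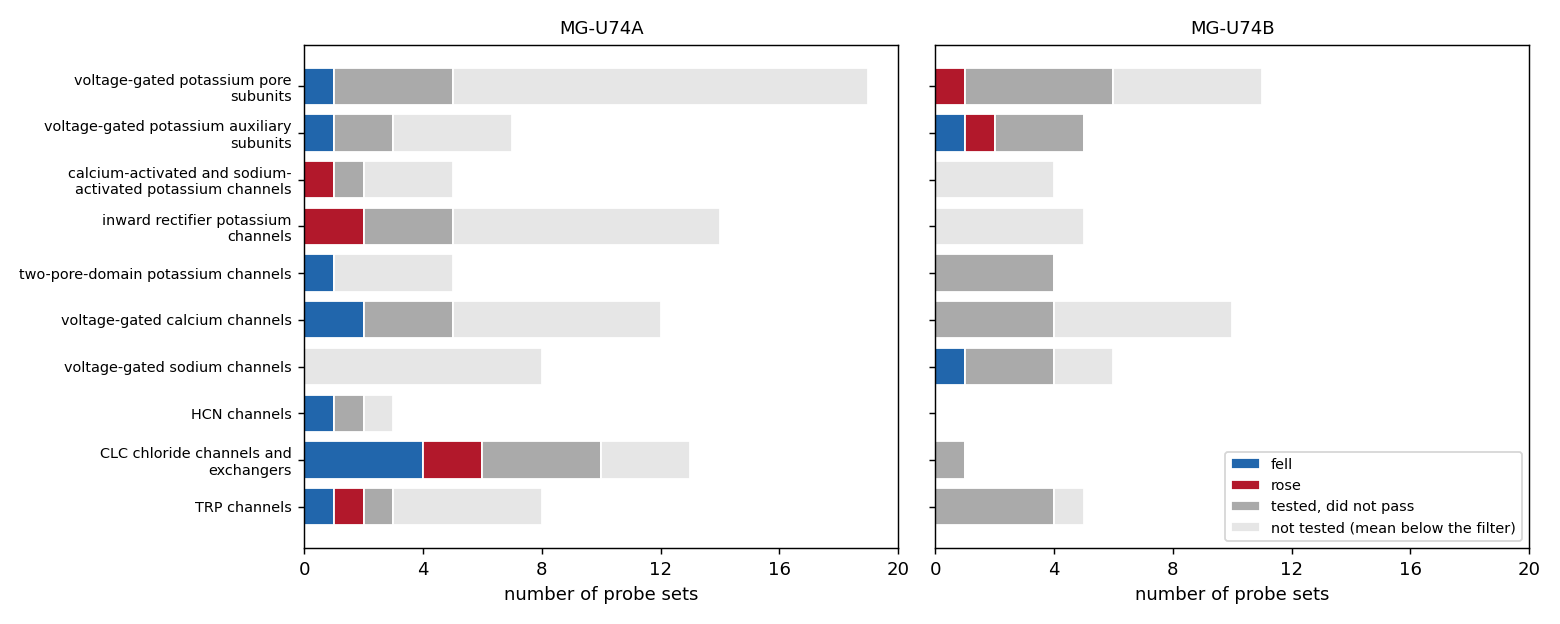
Number of channel probe sets (horizontal axis) in each class of channel on MG-U74A (left) and MG-U74B (right), split into those that fell, rose, were tested without passing, or were not tested because their mean intensity lay below the filter; Trpc4ap is not drawn. On MG-U74A the CLC class had 10 of 13 probe sets tested, with 4 that fell and 2 that rose, while none of the 8 sodium channel probe sets was tested.

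The CLC family had 10 tested probe sets on MG-U74A, more than any other class, and 6 of them changed (60.0%, beside 52.9% of all tested), a share near the background. Clcn3, Clcn4 and Clcn5, which encode closely related chloride/proton exchangers of endosomes and, for Clcn3, of secretory granules, each had a probe set that fell by more than 1 on the log2 scale. Clcn7, the exchanger of the lysosome membrane, rose on both of its probe sets. Of the 6 changed CLC probe sets 4 fell and 2 rose. They belong to 4 of the 7 CLC genes measured on either array type. These 4 genes had 2 to 4 probe sets each, and with no share over all genes nothing is read from that count.

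Windows of 300 bases around the RefSeq start of these 4 genes, 250 bases before it and 50 after (build GRCm38.p6), are shown because they are the family members whose level changed. Each gene has 2 annotated starts in the table, and the window of the most upstream one is given, read along the gene from 5′ to 3′. Clcn3 is at chr8:60983262-60983561 (minus strand), Clcn4 at chr7:7299508-7299807 (minus), Clcn5 at chrX:7319309-7319608 (minus) and Clcn7 at chr17:25133141-25133440 (plus). Capitals mark matches, on either strand, to CACGTG (the E-box read by factors of lysosomal and growth control), TGACGTCA (the full cAMP response element) or GGGCGG (the GC box), motifs chosen after the values were known. These 3 motifs do not overlap in the windows shown.
Clcn3: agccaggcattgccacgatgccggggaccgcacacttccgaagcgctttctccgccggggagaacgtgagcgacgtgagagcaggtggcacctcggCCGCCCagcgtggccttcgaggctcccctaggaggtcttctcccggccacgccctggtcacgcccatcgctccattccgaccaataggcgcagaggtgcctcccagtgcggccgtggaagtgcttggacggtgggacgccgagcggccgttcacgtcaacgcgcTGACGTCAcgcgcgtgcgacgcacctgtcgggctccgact
Clcn4: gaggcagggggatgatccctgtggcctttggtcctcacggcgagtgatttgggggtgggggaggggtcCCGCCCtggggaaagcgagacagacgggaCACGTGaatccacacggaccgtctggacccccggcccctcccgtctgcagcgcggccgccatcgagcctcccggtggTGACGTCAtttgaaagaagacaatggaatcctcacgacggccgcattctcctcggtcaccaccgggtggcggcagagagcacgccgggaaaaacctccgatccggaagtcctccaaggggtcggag
Clcn5: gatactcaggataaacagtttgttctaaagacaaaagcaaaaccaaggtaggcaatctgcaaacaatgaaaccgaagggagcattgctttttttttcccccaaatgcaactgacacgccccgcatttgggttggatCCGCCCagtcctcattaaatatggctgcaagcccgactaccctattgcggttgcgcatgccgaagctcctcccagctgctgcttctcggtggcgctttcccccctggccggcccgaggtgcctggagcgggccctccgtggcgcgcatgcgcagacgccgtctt
Clcn7: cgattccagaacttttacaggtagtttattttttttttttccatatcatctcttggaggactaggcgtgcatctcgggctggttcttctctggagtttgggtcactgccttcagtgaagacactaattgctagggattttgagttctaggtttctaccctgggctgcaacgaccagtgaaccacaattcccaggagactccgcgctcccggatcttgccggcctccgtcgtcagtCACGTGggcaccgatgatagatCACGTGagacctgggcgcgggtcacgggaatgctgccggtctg
The Clcn7 window holds 2 E-boxes, 1 starting 15 bases before the start and 1 starting 7 bases after it. Clcn4 holds 1 E-box and 1 cAMP response element, and Clcn3 holds 1 cAMP response element. A GC box stands once in each of Clcn3, Clcn4 and Clcn5. Of all 32851 windows of this length, 7.15% held the E-box, 1.79% the cAMP response element and 35.7% the GC box. A match describes letters only and says nothing of binding in these islets.

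Clcn3 was measured by 4 probe sets on MG-U74A. Probe set 102786_at read 839 and 826 in the wild type and 352 and 281 in the knockout arrays, so that both knockout arrays were far below both wild type arrays. The log2 change was -1.34 ± 0.12 (SE; limma adjusted p = 0.0019), a wild type mean 2.63 times the knockout mean. The second, 94464_at, read 235 and 251, then 101 and 109, again without overlap (-1.04 ± 0.12, adjusted p = 0.0039). The remaining pair had lower knockout values in both arrays without passing: 94463_at at 156 and 163, then 119 and 119 (-0.36 ± 0.12, adjusted p = 0.076), and 94465_g_at at 138 and 153, then 134 and 52.0 (-0.62 ± 0.39, adjusted p = 0.25). All 4 probe sets of Clcn3 thus had both knockout arrays below both wild type arrays, by differing sizes.

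Clcn5, the endosomal exchanger whose loss causes Dent disease of the kidney, read 273 and 291 in wild type and 78.0 and 124 in knockout on 101913_at. The knockout values were below the wild type ones by -1.31 ± 0.22 on the log2 scale (adjusted p = 0.010), a call that ended without either wild type array and without the filter (adjusted p = 0.051). Its other probe set, 161451_r_at, read 225 and 316, then 208 and 149, with 1 knockout array near the lower wild type array (-0.54 ± 0.23, adjusted p = 0.13). Clcn4, which pairs with Clcn3 in endosomes, read 229 and 225, then 100 and 100 on 104704_at, with no overlap and almost no spread (-1.01 ± 0.12, adjusted p = 0.0038). On 99672_at the same gene read 165 and 162, then 189 and 153, where the knockout arrays straddled the wild type (0.05 ± 0.14, adjusted p = 0.78). The 2 probe sets of Clcn4 therefore gave different results, and the difference between them was not tested.

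Clcn7 read 198 and 198 in wild type and 330 and 336 in knockout arrays on 104392_at (0.68 ± 0.08, adjusted p = 0.0044). On 104391_s_at it read 295 and 309, then 454 and 461 (0.56 ± 0.07, adjusted p = 0.0046). Both probe sets were higher in both knockout arrays, and both calls held in every setting tried. Clcn7 is also expressed in macrophages. Macrophage and dendritic cell markers rose as given above, and their part in this rise was not tested. Clcn6, a late endosomal exchanger on MG-U74B, read 498 and 454, then 577 and 322, with overlapping groups (-0.13 ± 0.30, adjusted p = 0.79). Clcn1, the muscle chloride channel, and Clcn2, a widely expressed plasma membrane channel, had means below the filter.

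**Figure D2:**
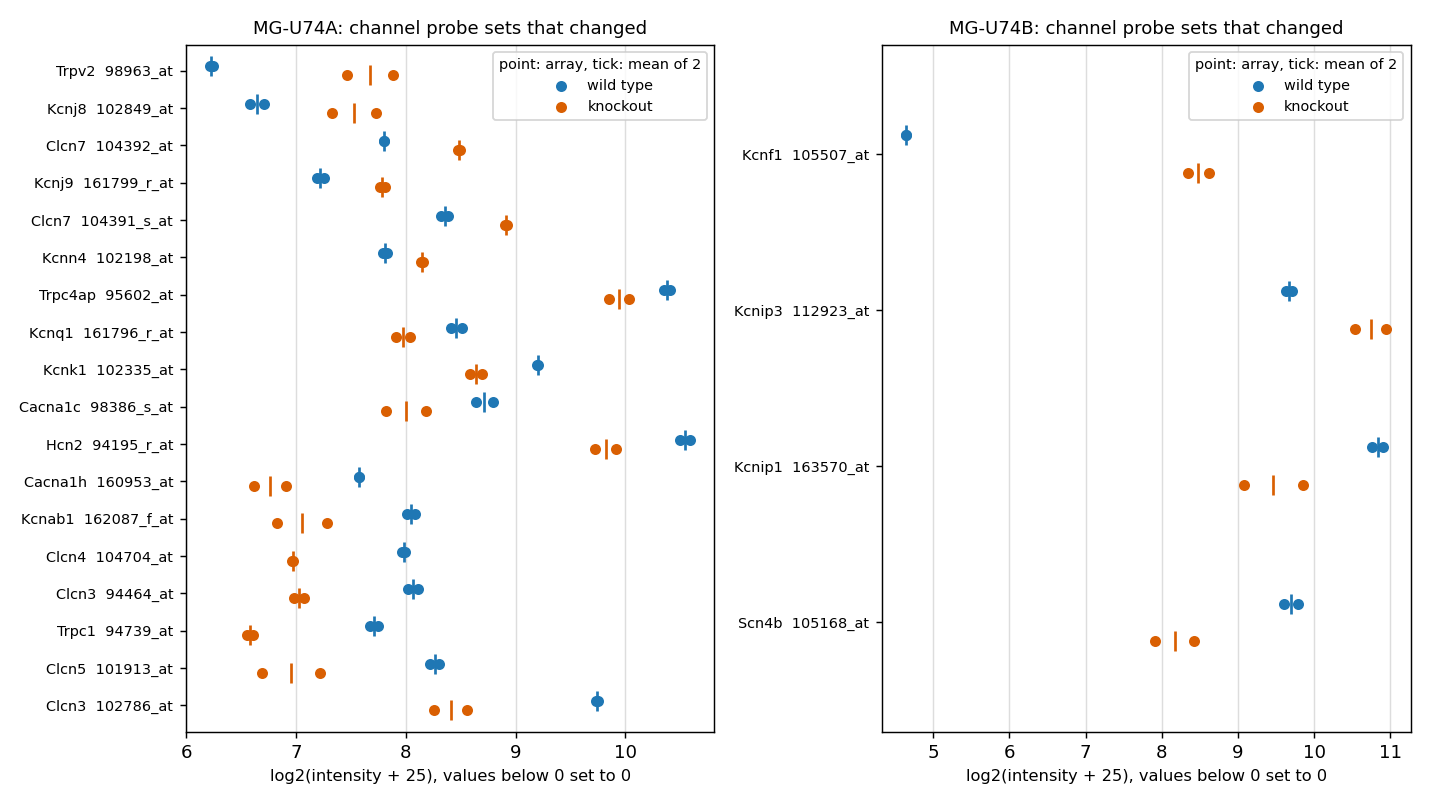
Each array's value, as log2 of intensity plus the constant 25 with values below 0 set to 0 (horizontal axis), for the 18 channel probe sets of MG-U74A (left) and the 4 of MG-U74B (right) that changed; points are arrays, blue wild type and orange knockout, and ticks mark means of 2 arrays. No row has overlapping genotypes, and both wild type points of Kcnf1 lie at the floor set by the constant.

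Among pore subunits of voltage-gated calcium channels, Cacna1c and Cacna1h fell on MG-U74A, as 2 of 5 tested probe sets of the class (40%, beside 29.0% of all tested). The channel classes are small, and nothing particular to a class is read from its share. Cacna1c, the L-type Cav1.2 channel of beta cells, heart and smooth muscle, read 419 and 373 in wild type and 265 and 201 in knockout arrays, with all knockout values lower (-0.71 ± 0.15, adjusted p = 0.022). Cacna1h, the low-voltage-activated T-type Cav3.2, read 166 and 166, then 72.8 and 95.2, also without overlap (-0.81 ± 0.17, adjusted p = 0.020). Both calls ended without either wild type array and without the filter (adjusted p = 0.082 and 0.058). Cacna1b, the N-type channel, read 78.8 and 87.9, then 60.4 and 65.2 on MG-U74A (-0.30 ± 0.18, adjusted p = 0.23). On MG-U74B its other probe set, with values from 4.40 to 165, was 1.45 ± 0.75 higher (adjusted p = 0.24), and neither passed. The auxiliary subunit Cacnb2 read 151 and 172, then 152 and 105 (-0.30 ± 0.20, adjusted p = 0.28). On MG-U74B 4 of 10 calcium channel probe sets were tested and limma called 0, beside 17.5% of all tested, with 0 at an unadjusted p under 0.05. Cacna1a, the P/Q-type channel, ranged there from -11.1 to 174 with both extremes in knockout arrays (-0.62 ± 1.07, adjusted p = 0.71), and its MG-U74A probe set was not tested. All probe sets of Cacna1e (3, the R-type channel of endocrine cells), Cacng2 and Cacng4 (2 each) lay below the filter.

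The calcium channel genes outside the symbol rule are given beside these. Cacna1d, the other L-type pore subunit of beta cells, fell by 1.74 ± 0.29 on MG-U74B (adjusted p = 0.023). Cacna2d1 fell by 1.73 ± 0.15 on MG-U74B (adjusted p = 0.0074), where its other probe set was not tested. On MG-U74A Cacna2d1 read 160 and 146, then -6.60 and 39.7 (-2.15 ± 0.52, adjusted p = 0.029). The knockout mean of 16.5 there lay below the filter. That probe set was thus tested only through its wild type values, and its direction is no support for a change.

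Sodium channels, which carry the upstroke of the action potential in excitable cells, were mostly too low to compare. None of their 8 probe sets on MG-U74A and 4 of 6 on MG-U74B were tested, and those of Scn1a, Scn3a and Scn9a all lay below the filter. Scn4b, an auxiliary beta subunit that shapes resurgent sodium current, read 754 and 855 in wild type and 319 and 215 in knockout arrays on 105168_at. The knockout arrays were both lower (-1.53 ± 0.24, adjusted p = 0.020), a wild type mean 3.01 times the knockout mean. Its other probe set, 114069_at, read 187 and 206, then 163 and 288, with the knockout arrays on either side of the wild type (0.13 ± 0.36, adjusted p = 0.82). The call on 105168_at ended without either wild type array, without the filter and without the variance trend. Scn8a, a pore subunit of neurons, read 314 and 340, then 662 and 345 (0.52 ± 0.34, adjusted p = 0.33), a difference made by 1 knockout array. Scn7a, an atypical channel that senses sodium, read 87.1 and 72.8, then 157 and 30.0, with overlap (-0.07 ± 0.71, adjusted p = 0.96); the other probe sets of both genes were not tested.

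Among pore subunits of voltage-gated potassium channels 1 of 5 tested fell on MG-U74A (20%, beside 29.0% of all tested). On MG-U74B 1 of 6 rose (16.7%, beside 8.59%). Kcnq1, whose slowly opening channel is linked by human variants to type 2 diabetes, read 315 and 341, then 216 and 238 on 161796_r_at (-0.49 ± 0.10, adjusted p = 0.018). The knockout arrays did not overlap the wild type, and the call ended without either wild type array. Its other probe set, 99322_at, lay between -6.60 and 1.80 on all 4 arrays and was not tested. Kcnh2, the ERG channel that speeds repolarisation, read 394 and 403, then 349 and 238 (-0.43 ± 0.19, adjusted p = 0.13). Kcnd3, an A-type channel, read 114 and 115, then -16.0 and 107, so that its difference rested on 1 array (-1.28 ± 0.86, adjusted p = 0.27). Kcna3 and Kcns2 were not called either.

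On MG-U74B Kcnf1, a silent subunit that alters the gating of Kcnb channels, was listed at -5.20 and -154 in wild type and 368 and 299 in knockout arrays. Its wild type mean of -79.5 lay below the filter, so the probe set was tested only through its knockout values. With both wild type arrays below 0 there is no fold. The log2 change of 3.84 ± 0.46 (adjusted p = 0.011) depends on the constant added, ranging from 2.93 to 5.09 over the settings tried. The call ended without either wild type array (adjusted p = 0.076 and 0.081), and without knockout replicate 1 the mean lay below the filter. Kcng4, another silent subunit, read 515 and 842, then 774 and 40.7, where 1 knockout array was low and the other within the wild type range (-1.58 ± 1.20, adjusted p = 0.39). Kcnc4, a fast Kv3 subunit, read 624 and 734, then 964 and 749 (0.32 ± 0.18, adjusted p = 0.28). Kcna1 read 35.3 and 16.3, then 148 and 112 (1.62 ± 0.51, adjusted p = 0.097), and Kcng1 read 132 and 111, then 345 and 202 (0.99 ± 0.37, adjusted p = 0.14). In both genes the knockout arrays were higher, and neither passed. Kcnc1 read 141 and 119, then 171 and 116, with overlap (0.10 ± 0.37, adjusted p = 0.86). The second probe sets of Kcna1, Kcng1, Kcnc1 and Kcnd3, and both of Kcna2, Kcna5 and Kcnd2, were below the filter.

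The auxiliary potassium channel subunits moved in both directions. The 3 calcium-binding KChIP proteins, which bind Kv4 channels and speed their recovery, were tested on MG-U74B. Kcnip1 read 1891 and 1715 in wild type and 514 and 897 in knockout arrays, with the knockout arrays lower and apart from each other (-1.37 ± 0.28, adjusted p = 0.035). Kcnip3, also known as the transcriptional repressor DREAM, read 814 and 765, then 1951 and 1461, above both wild type arrays (1.07 ± 0.17, adjusted p = 0.021). Both calls ended without either wild type array, without the filter and without the variance trend, and that of Kcnip3 also without knockout replicate 1 (adjusted p = 0.053). Kcnip4 read 561 and 519, then 562 and 18.1, a difference made by 1 knockout array (-1.83 ± 1.23, adjusted p = 0.35). Kcnab1, a beta subunit that speeds inactivation of Kv1 channels, read 233 and 246, then 131 and 88.1 on 162087_f_at (-0.997 ± 0.197, adjusted p = 0.017). The knockout arrays were both lower, the call ended without either wild type array and without the filter, and the gene's other probe set lay between -14.5 and 12.1. Kcnab2 read 131 and 53.0, then 96.2 and 117 (0.25 ± 0.39, adjusted p = 0.61), with its other probe set not tested. The small single-span subunits Kcne1 (0.84 ± 0.33, adjusted p = 0.10) and Kcne4 (0.76 ± 0.21, adjusted p = 0.077) were higher in both knockout arrays without passing, and Kcne3 overlapped.

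Inward rectifiers hold the resting potential, and 2 of 5 tested rose on MG-U74A (40%, beside 23.9% of all tested). Kcnj8 encodes Kir6.1, the pore of the vascular ATP-sensitive channel, and read 79.3 and 70.5 in wild type and 135 and 187 in knockout arrays. Both knockout arrays were above both wild type arrays (0.88 ± 0.20, adjusted p = 0.026), a call that ended without either wild type array and without the filter. Its partner Abcc9, the regulatory subunit SUR2, is no member of the symbol pattern. It read 266 and 230, then 757 and 674 on MG-U74B (1.44 ± 0.19, adjusted p = 0.013), where a further probe set was not tested. On MG-U74A Abcc9 read 37.9 and 82.9, then 208 and 175 (1.39 ± 0.31, adjusted p = 0.025). The wild type mean of 60.4 there lay below the filter. That probe set was thus tested only through its knockout values, and its direction is no support for a change. Kcnj8 and Abcc9 are known from smooth muscle cells and pericytes. Their markers rose in 6 of 8 tested probe sets on MG-U74A (75%, beside 23.9% of all tested) and fell in none. The summed intensity was 4931 to 4953 in wild type and 7085 to 7419 in knockout arrays. In that list Acta2, Cnn1, Notch3 and Smtn were at or below 0 in both wild type arrays, and Smtn in the knockout too. Any tested probe set of these genes passed the filter only through its knockout values, so its direction is no support and the share of 75% is inflated by it. On MG-U74B 1 of 3 tested probe sets of the list rose (33.3%, beside 8.59% of all tested) and none was called as fallen. Log2 changes there ranged from -2.46 to 1.40, and the lowest had both knockout arrays below both wild type arrays. The part of those cells in the rise of Kcnj8 and Abcc9 was not tested.

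The beta cell counterparts of that channel lie outside the pattern. Abcc8, the regulatory subunit SUR1, fell by 2.45 ± 0.14 (adjusted p = 0.00060), and Kcnj11, its Kir6.2 pore, read 223 and 211, then 31.4 and 140 (-1.33 ± 0.55, adjusted p = 0.12).

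Kcnj9, a subunit of G protein-gated channels, read 121 and 127, then 199 and 193 on 161799_r_at (0.57 ± 0.12, adjusted p = 0.019), a call that ended without either wild type array. On 98332_at it read 118 and 102, then 101 and 83.8, in the other direction and without passing (-0.21 ± 0.17, adjusted p = 0.38), and its MG-U74B probe set was not tested. Kcnj6, of the same G protein-gated group, read 228 and 202, then 224 and 241 with overlapping genotypes (0.10 ± 0.11, adjusted p = 0.48), and its other probe set was below the filter. Kcnj4, a strong inward rectifier of brain and heart, read 216 and 230, then 165 and 110 (-0.63 ± 0.20, adjusted p = 0.062), lower in both knockout arrays without passing. The 2 probe sets of Kcnj1, the 4 of Kcnj15, and all 5 inward rectifier probe sets of MG-U74B were below the filter.

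Tandem-pore potassium channels carry background current. Kcnk1 read 565 and 561, then 389 and 359, with both knockout arrays lower (-0.56 ± 0.07, adjusted p = 0.0046), and this call held in every setting tried. It was the only one of 5 probe sets of the class tested on MG-U74A. On MG-U74B 4 of 4 were tested and limma called 0, beside 17.5% of all tested, with 1 at an unadjusted p under 0.05. That one is Kcnk6, at 84.3 and 88.8, then 276 and 236, without overlap (1.33 ± 0.32, adjusted p = 0.053). Kcnk5 read 110 and 7.40, then 239 and 189 (1.85 ± 0.77, adjusted p = 0.17). Kcnk3, an acid-sensitive channel, read 422 and 411, then 633 and 436 on MG-U74B (0.32 ± 0.23, adjusted p = 0.37), and its MG-U74A probe set was not tested.

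Of the calcium-activated potassium channels Kcnn4, the intermediate-conductance channel of lymphocytes, macrophages and red cells, rose on MG-U74A. It read 202 and 196, then 256 and 260, a small shift with no overlap (0.34 ± 0.09, adjusted p = 0.040). The call ended without any 1 of the 4 arrays, with adjusted p from 0.054 to 0.21. Its MG-U74B probe set lay at -0.20 to 94.6 and was not tested. Kcnma1, the large-conductance BK channel, read 164 and 186, then 127 and 54.3 (-0.86 ± 0.36, adjusted p = 0.11). Both probe sets of its beta subunit gene Kcnmb1 were at or below 0 on every array.

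HCN channels open on hyperpolarisation and pace rhythmic firing. Hcn2 read 1423 and 1519 in wild type and 822 and 942 in knockout arrays on 94195_r_at (-0.72 ± 0.08, adjusted p = 0.0038), with both knockout arrays lower and the call kept in every setting tried. Its other probe set, 94194_s_at, read 3.40 and -20.8, then -118 and -100.0, and was not tested, so that the fall rests on 1 of 2 probe sets. Hcn3 ranged from 6.70 to 212, and its largest and smallest values were both knockout arrays (0.07 ± 1.11, adjusted p = 0.96).

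Among TRP channels Trpv2 rose and Trpc1 fell on MG-U74A, as 2 of 3 tested (66.7%, beside 52.9% of all tested that changed). Trpv2, a calcium-permeable channel of macrophages and other cells, read 50.5 and 49.2 in wild type and 211 and 152 in knockout arrays (1.45 ± 0.21, adjusted p = 0.0070). Both knockout arrays were higher. The wild type mean of 49.9 lay below the filter, so the probe set was tested only through its knockout values, and it was not tested with the filter at 50% of the array mean. The call held in the other settings tried. It moved with the macrophage and dendritic cell markers given above, and their part in it was not tested. Trpc1, a subunit of receptor- and store-operated cation channels, read 178 and 190, then 69.1 and 72.3 on 94739_at (-1.13 ± 0.14, adjusted p = 0.0046). The knockout arrays were both lower, the call ended without wild type replicate 2 (adjusted p = 0.052), and the gene's other probe set, 94740_g_at, lay between -18.5 and 15.8.

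Trpm1 read 150 and 272, then 274 and 290 (0.43 ± 0.28, adjusted p = 0.27), with 1 wild type array close to the knockout. On MG-U74B 4 TRP channel probe sets were tested and limma called 0, beside 17.5% of all tested, with 1 at an unadjusted p under 0.05. Trpv4, an osmosensitive calcium channel, read 690 and 349, then 1270 and 915, higher in both knockout arrays with a wide wild type pair (1.09 ± 0.36, adjusted p = 0.10). Trpm4, the calcium-activated cation channel that depolarises beta cells, read 251 and -164, then 474 and 302 (2.28 ± 1.17, adjusted p = 0.24). Trpm7, a channel fused to a kinase, read 362 and 402, then 337 and 433 (0.00 ± 0.21, adjusted p = 0.99), and its other 2 probe sets were not tested. The adaptor gene Trpc4ap read 1336 and 1281, then 1021 and 899 on MG-U74A (-0.44 ± 0.08, adjusted p = 0.012), a call that ended without either wild type array and without the filter (adjusted p = 0.053). On MG-U74B it read 563 and 526, then 216 and 314, lower in both knockout arrays without passing (-0.99 ± 0.24, adjusted p = 0.054).

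**Figure D3:**
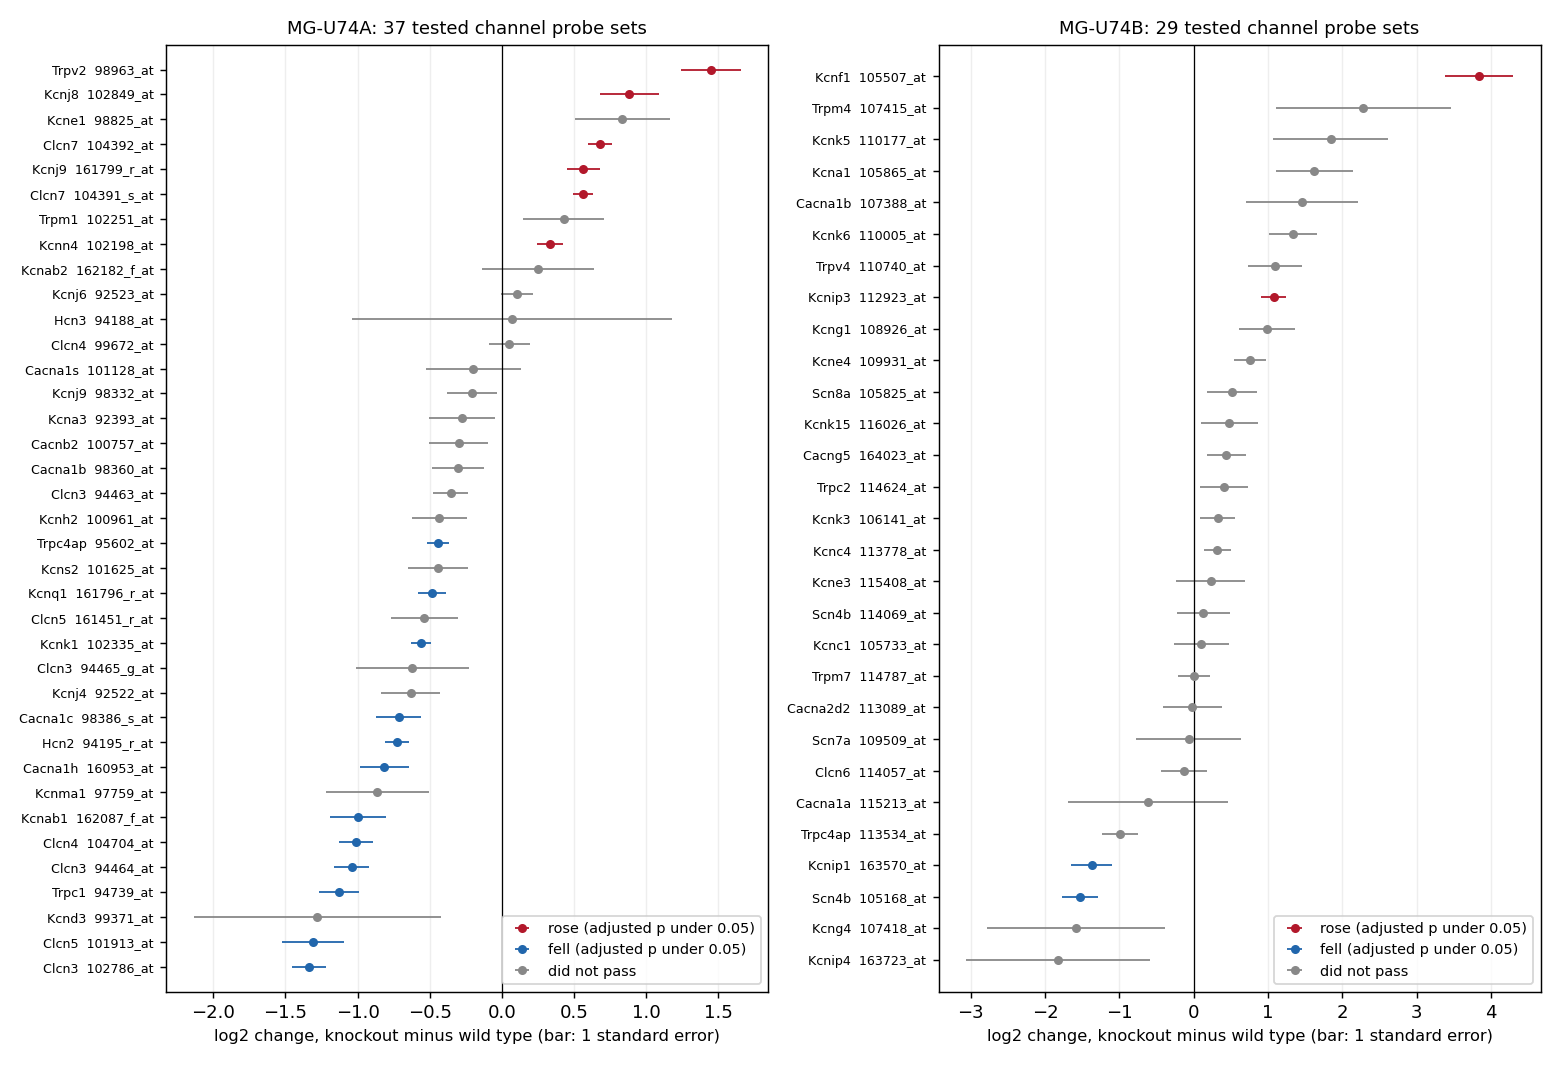
Log2 change, knockout minus wild type (horizontal axis; bars are 1 standard error), of the 37 tested channel probe sets of MG-U74A (left) and the 29 of MG-U74B (right), sorted by size; red rose, blue fell, grey did not pass. On MG-U74A 25 of 37 lie below 0, beside 4173 of all 7516 tested, and on MG-U74B 9 of 29, beside 3496 of all 7861. The widest bars on both types belong to probe sets that did not pass.

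Agreement between probe sets of 1 gene could be examined in few cases. Of 37 genes with several probe sets, 13 had none tested, 16 had 1 tested and 8 had more than 1. In the 8 genes, Clcn3 and Clcn7 had more than 1 call, in the same direction. Clcn4, Clcn5, Kcnj9, Scn4b and Trpc4ap had 1 call and at least 1 probe set that did not pass, and Cacna1b had none. The point estimates differed in sign for Clcn4, Kcnj9, Scn4b and Cacna1b. In 5 of the 16 genes with 1 tested probe set (Hcn2, Kcnab1, Kcnn4, Kcnq1 and Trpc1) that probe set was called while the other lay below the filter. Probe sets with a letter before the ending _at (s, f, g or r) were designed under relaxed rules or are shared with related transcripts. They gave 6 of the 18 calls on MG-U74A, from 9 tested (66.7%). Plain probe sets gave 12 calls from 28 tested (42.9%), beside 52.9% of all tested probe sets of any ending.

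**Figure D4:**
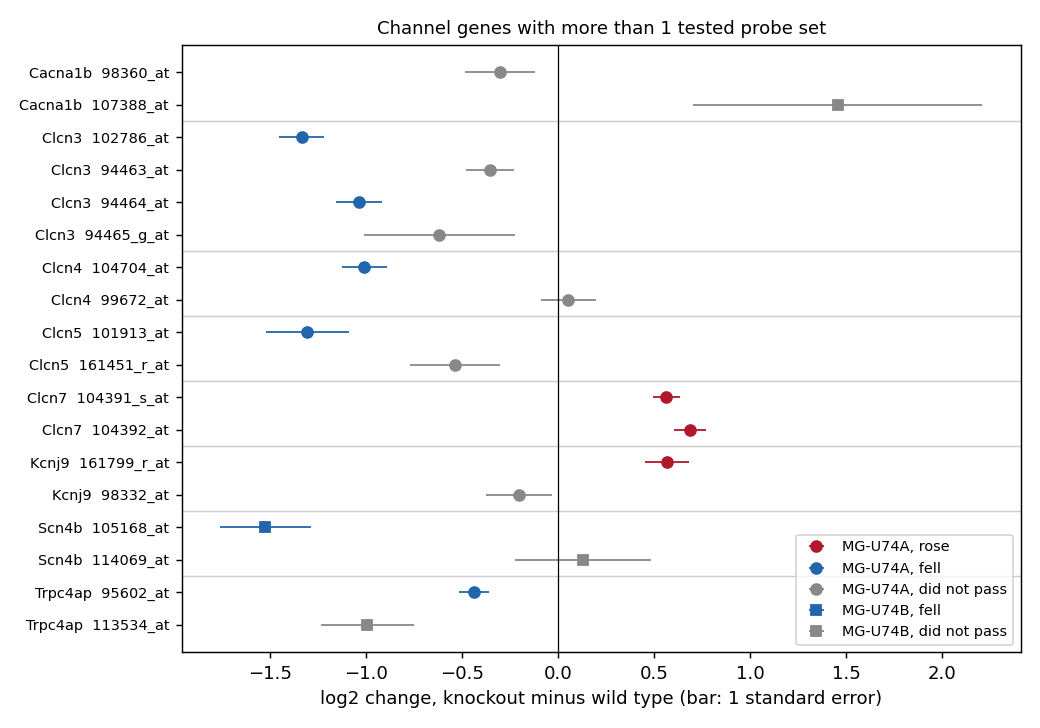
Log2 change, knockout minus wild type (horizontal axis; bars are 1 standard error), of every tested probe set of the 8 channel genes with more than 1; circles are MG-U74A, squares MG-U74B, red rose, blue fell, grey did not pass. Clcn7 and Clcn3 have all probe sets on one side of 0, while Clcn4, Kcnj9, Scn4b and Cacna1b have probe sets on both sides.

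The spread within a genotype is given last. On MG-U74B knockout replicate 1 was above replicate 2 in 23 of 29 tested channel probe sets (79.3%), beside 54.2% of all tested. The knockout pair was further apart than the wild type pair in 25 of 29 (86.2%), beside 58.7%. On MG-U74A the same shares were 51.4% and 62.2%, beside 53.0% and 65.7%. These shares are given as a description with no test.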

How the data were processed

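The values are linear intensities, 1 per probe set, as deposited by the authors, and made with software not given in the sources used here. A trimmed mean (top and bottom 2% removed) of 250.2 for MG-U74A and 250.1 for MG-U74B was found in the values, and 18.4% to 26.7% of each array lay below 0. Each array was multiplied by 1 factor to a common trimmed mean (a change of at most 0.00784%), negative values became 0, and 25.0 was added before log2, so changes of low genes are understated. Probe sets with a 4-array mean below 62.5 and the 66 controls of each type were not tested.

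Genotypes were compared within each array type with lmFit and eBayes with a variance trend in limma 3.58.1 (R 4.3.3), two-sided, with Benjamini-Hochberg adjustment over all tested probe sets. With 2 arrays against 2, the smallest p of an exact permutation test is 0.333, so the p-values rest on spread pooled across probe sets, and the number of arrays limits the precision. The procedure was also run on simulated data, with changes planted only in probe sets whose wild type mean lay above the trimmed mean. Its noise followed the wild type pair. That run therefore does not speak for fainter probe sets or for the spread of the knockout pair, and nothing is drawn from it here. Alternatives changed the constant, the filter, the normalization, the variance trend, the replicate block, the symbols and each array in turn.

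Symbols came from the array annotation: 10855 probe sets of MG-U74A and 10603 of MG-U74B had 1 symbol, 396 and 178 several, and 1237 and 1696 none. Current names changed no member. Promoter windows were from RefSeq, with 81 of 102 genes matched by symbol. Members, gene lists and motifs were chosen with earlier results of these data known. Named in full were probe sets that changed without overlap, the 5 brightest tested without passing on each type, and genes with several probe sets; other genes were named after their values were seen. The targeted gene is not reported here.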

Additional observations from a re-analysis of the deposited data

How the results depend on the processing

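On MG-U74A the count of 18 changed channel probe sets lay between 12 and 20 under the other constants, filters, normalization, variance model and symbols, and with plain probe sets alone, an alternative chosen after seeing the data. Leaving out 1 array gave 9 to 22 changed, 3 to 5 risen and 5 to 17 fallen, the lowest without a wild type array. On MG-U74B the count of 4 went to 2 without the filter (1 risen, 1 fallen) and to 2 without the variance trend (2 risen, 0 fallen by limma, with 9 of 29 at an unadjusted p under 0.05). Leaving out 1 array there gave 0 to 5 changed, 0 to 2 risen and 0 to 4 fallen; without wild type replicate 1 or 2 limma called 0, with 9 and 6 channel probe sets at an unadjusted p under 0.05, and 1 probe set of the whole array passed. The cause was not tested. With the replicate block 16 changed on MG-U74A (4 risen, 12 fallen), losing Kcnj9 and Kcnn4, and 5 on MG-U74B (3 risen, 2 fallen), adding Trpv4; deviations of arrays with the same number correlated at only 0.024 and 0.032, so the numbers were not taken as pairs. Of the 22 calls none changed sign, and 8 on MG-U74A (Clcn3 and Clcn7 with 2 each, Clcn4, Hcn2, Kcnk1 and Trpv2) and 0 on MG-U74B passed in every setting that could test them. Without the filter 20 were called on MG-U74A, 12 of them also called with it. Signal limits most of the family, since 81 of 147 probe sets lay below the filter.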

Other observations

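Ion transport genes outside the symbol pattern are given by lists chosen with earlier results known. Of the calcium release and store entry genes 6 of 9 tested probe sets fell and none rose on MG-U74A (66.7% fell, beside 29.0% of all tested), while 1 of 7 rose on MG-U74B (14.3%, beside 8.59%) and none fell. Stim1, the calcium sensor of the endoplasmic reticulum, read 829 and 699 in wild type and 69.3 and 56.6 in knockout arrays (-3.16 ± 0.14, limma adjusted p = 0.00037). The sarco/endoplasmic reticulum calcium pump gene Atp2a2 read 495 and 466, then 39.2 and 2.60 on MG-U74A (-3.58 ± 0.45, adjusted p = 0.0047). Its knockout mean of 20.9 lay below the filter, so the probe set was tested only through its wild type values. That direction is no support for a change, and the size depends on the constant added. The MG-U74B probe set of Atp2a2 was not tested. Atp2a3, which encodes another such pump, fell on 3 probe sets. The inositol trisphosphate receptor gene Itpr2 rose on 1 probe set of MG-U74B (1.31 ± 0.18, adjusted p = 0.015), while its tested MG-U74A probe set did not pass (0.27 ± 0.12, adjusted p = 0.13).

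Of the sodium and proton pump genes 6 of 11 tested fell (54.5%, beside 29.0% of all tested) and 1 rose (9.09%, beside 23.9%) on MG-U74A, and 1 of 3 fell on MG-U74B (33.3%, beside 8.87%). These lists are short, and nothing particular to them is read from the shares. The proton pump subunit gene Atp6v1a, whose complex acidifies granules and endosomes, fell on all 3 of its probe sets, from -0.78 to -1.31 on the log2 scale. Fxyd5, a regulator of the sodium pump, read 150 and 142, then 1278 and 1197 (2.89 ± 0.07, adjusted p = 0.00012). Of the other chloride and cation channels 2 of 12 tested rose (16.7%, beside 23.9%) and 5 fell (41.7%, beside 29.0%) on MG-U74A. The rises were on 1 probe set each of Clca1 and Clic4, and another Clca1 probe set fell there. On MG-U74B 2 of 9 fell (22.2%, beside 8.87%) and none rose. Nothing particular to this list is read from its shares either. Of its members the endolysosomal channel gene Tpcn1 fell on MG-U74B (-1.76 ± 0.21, adjusted p = 0.011). Mcoln1, also endolysosomal, fell there on 1 probe set (-1.56 ± 0.24, adjusted p = 0.020). Its other probe set there read 1341 and 1288, then 973 and 1199, lower in both knockout arrays without passing (-0.28 ± 0.14, adjusted p = 0.24). Of the ligand-gated channels 2 rose (15.4%, beside 23.9%) and 3 fell (23.1%, beside 29.0%) of 13 tested on MG-U74A. On MG-U74B limma called 0 of 8, beside 17.5% of all tested, with 1 at an unadjusted p under 0.05.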
